A study of Mus musculus with 20 samples.

Results

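The B7 ligands are membrane proteins of the immunoglobulin superfamily that send costimulatory or inhibitory signals to T cells. 7 of the 55376 genes in the count tables were followed, chosen by symbol: Cd276, Cd274, Pdcd1lg2, Cd80, Cd86, Icosl and Vtcn1. All 7 were found in both tables. Cd276 had been picked out for its levels at 7 days after injury against intact nerve in these same libraries, and the family was set around it. Its levels over the injury time course are therefore given as a description, and no member has a p-value for 7 days against intact.

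RNA came from endothelial cells of adult mouse sciatic nerve, sorted as reporter-positive and CD45-negative cells and sequenced in bulk after polyA selection. In the Tomato experiment a R26-TomatoLSL reporter, switched on by Cdh5(PAC)-CreERT2, marked endothelial cells of Plxnd1 WT mice. The groups were intact nerve (5 libraries) and the lesion site, called the bridge, 7 days (7 dpi, 5 libraries) and 14 days (14 dpi, 4 libraries) after the lesion was made. All cells of the Cherry experiment carried Kdr-Cherry and came from the bridge at 7 dpi. Its KO group (3 libraries) came from mice with Chd5::CreER (the spelling of the design text) and Plxnd1 fl/fl, for deletion of Plexin-D1 in endothelium. Its WT group (3 libraries) came from Plxnd1 WT controls. Whether the controls carried the Cre driver is not given in the sources used here. The reporters mark cells by activity of the Cdh5 or the Kdr promoter, which limits the sort to cells in which it is or was active, and nerves were pooled before dissociation. A condition label names the injury a crush while the design text speaks of a bridge. The labels give 2 batches, 1133 and 1292, and each group has libraries of both. The animals behind a library are not labelled, so the p-values reflect variation among libraries that could be partly technical.

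Library totals ran from 19.1 M to 34.2 M (mega) counts in the Tomato experiment and from 19.3 M to 33.8 M in the Cherry experiment. A count of 0 allows up to 3 counts, which is 0.0872 to 0.164 counts per M (CPM) depending on the library. These limits cover counting error only. Plxnd1 had 131.4, 160.5 and 160.1 CPM in KO libraries, against 349.8, 324 and 343 CPM in WT libraries, a log2 fold change of -1.23 ± 0.10 (SE, edgeR adjusted p = 1.29e-04). KO libraries thus kept Plxnd1 RNA, at 0.427-fold the WT level. How complete the deletion was in the sorted cells was not tested. The 12 endothelial markers summed to 4288 to 10179 CPM in intact nerve, 8383 to 12683 CPM at 7 dpi and 7041 to 8216 CPM at 14 dpi. Genes used as markers of other cells were present too. How much of their RNA came from endothelial cells themselves, as could be for Slc2a1 or Cd34, was not tested. The 10 fibroblast markers summed to 10725 to 18518, 6359 to 21659 and 18241 to 37486 CPM in those 3 groups, and the 8 perineurial markers to 4752 to 7483, 539 to 1234 and 1662 to 3675 CPM. The 14 macrophage and dendritic cell markers reached 338 CPM in 7 dpi replicate 4 and 1080 CPM in 14 dpi replicate 3, with Lyz2 alone at 244.6 and 778 CPM there. Those 2 libraries stand apart, and values without them are given where members are tested. In bulk RNA, fewer cells of a type and less RNA per cell cannot be told apart.

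As background, B7 ligands work in pairs with receptors of the CD28 family. Cd80 and Cd86 on antigen-presenting cells give the second signal for T-cell activation through Cd28, and they inhibit through Ctla4. Cd274 (PD-L1) and Pdcd1lg2 (PD-L2) bind the inhibitory receptor Pdcd1 (PD-1), and Icosl binds Icos. Cd276 (B7-H3) and Vtcn1 (B7-H4) are mostly described as inhibitory, and their receptors are less settled. Cd276 is also known from the blood vessels of tumours. Endothelial cells can carry Cd274 and Icosl, both of which respond to inflammatory cytokines in culture.

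The upstream sequences of the detected members differ in base composition, and the Cd274 and Icosl windows are printed because those 2 members were called between injury times. RefSeq windows on GRCm38.p6 covering the 250 bases before the annotated start were matched for 6 of the 7 genes; the exception was Cd86. 5 motifs were searched on both strands after the sequences had been seen: GAAANNGAA and the same with 1 further A at its end, which are interferon response forms, TTCNNNGAA, a cytokine response form, and the general promoter elements CCAAT and GGGCGG. In the lines that follow the capitals mark motif matches. The Cd274 window (chr19:29367188-29367437, plus strand) held GAAANNGAA on the minus strand, beginning 76 bases before the start, and GGGCGG 31 bases before it. The Icosl line (chr10:78069118-78069301, plus strand) gives the 184 bases outside the deposited first exon, with a CCAAT match on the minus strand 145 bases before the RefSeq start. The full Icosl window also held GGGCGG 59 bases and CCAAT 39 bases before that start, in the exon stretch that is not printed.
Cd274: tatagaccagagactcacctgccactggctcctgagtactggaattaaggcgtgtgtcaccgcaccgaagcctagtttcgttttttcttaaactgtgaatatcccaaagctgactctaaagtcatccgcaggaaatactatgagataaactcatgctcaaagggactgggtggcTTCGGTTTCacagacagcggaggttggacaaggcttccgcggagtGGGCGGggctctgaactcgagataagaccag
Icosl: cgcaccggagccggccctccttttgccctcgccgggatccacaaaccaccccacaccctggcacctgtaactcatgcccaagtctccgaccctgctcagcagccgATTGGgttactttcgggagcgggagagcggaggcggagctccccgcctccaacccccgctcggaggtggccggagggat

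The letters GAAANNGAA occur in 7.13% of the 32851 RefSeq windows of the same length, its longer form in 2.98%, TTCNNNGAA in 7.02%, CCAAT in 33.8% and GGGCGG in 32.7%. Cd276 had 29 CpG dinucleotides and 77.6% GC in its window, against a median over all windows of 6 CpG and 52.4% GC, and it held 2 CCAAT and 3 GGGCGG matches. Its window is not printed because all 250 bases lie in an exon of the deposited gene model. Icosl was also rich, with 23 CpG and 68.8% GC. Cd274 had 11 CpG and 50.4% GC. Cd80, Pdcd1lg2 and Vtcn1 had 3, 3 and 5 CpG and held none of the 5 motifs. A match describes letters in the window and not a bound site.

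Per kilobase of gene model, Cd276 had the highest level of the 7 members in every bridge group, at 55.1 CPM per kilobase at 7 dpi and 15.3 at 14 dpi. In intact nerve it was at 0.657 CPM per kilobase, below Cd274 (7.19) and Icosl (3.55). The gene lies on chromosome 9 (GRCm38, chr9:58524298-58555437, minus strand). It had 2.42, 3.56, 1.87, 2.48 and 1.51 CPM in the intact libraries, 178, 136, 260.1, 229 and 189.7 CPM at 7 dpi, and 40.4, 54.3, 58.9 and 67.6 CPM at 14 dpi. No value of one time lies within the range of another, and the lowest 7 dpi library was well above the highest 14 dpi library. At 7 dpi the level was 84.5-fold that of intact nerve (log2 fold change 6.40 ± 0.26, SE), and at 14 dpi it was 23.3-fold that of intact nerve (4.54 ± 0.25). The 14 dpi level was below that at 7 dpi, by a log2 fold change of -1.86 ± 0.23. These 3 differences carry no test. They stood in both batches: batch 1292 averaged 2.62, 191.4 and 47.3 CPM at the 3 times, and batch 1133 averaged 2.00, 209.1 and 63.3 CPM. Cd276 shares exonic bases with Gm10657 on the other strand, which had at most 16 counts in any library.

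**Figure D1:**
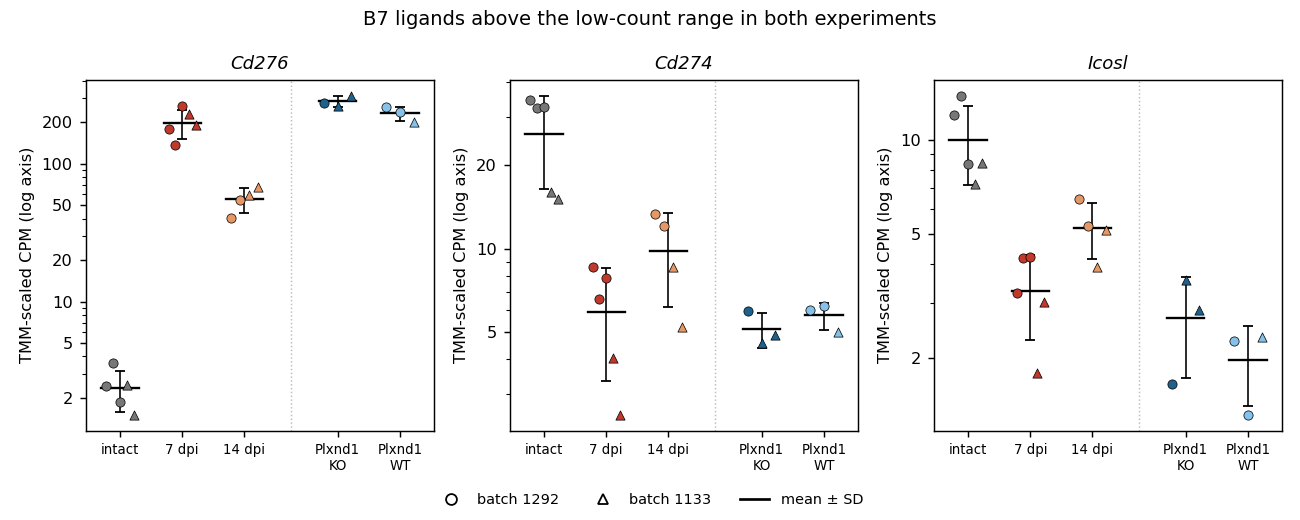
TMM-scaled CPM on log axes for Cd276, Cd274 and Icosl in each library, with the Tomato groups left of the dotted line and the Cherry groups right of it; circles are batch 1292, triangles batch 1133, and lines are the mean ± SD. Cd276 separates intact, 7 dpi and 14 dpi libraries, while Cd274 and Icosl are highest in intact nerve and, for Cd274, lie lower in batch 1133 than in batch 1292 in each Tomato group.

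Ranked per kilobase of gene model among the genes tested in each experiment, Cd276 stood at percentile 31.5 in intact nerve, 92.7 at 7 dpi and 78.6 at 14 dpi. In the Cherry experiment it stood at percentile 93.4 in KO and 92.3 in WT cells. Cell division markers moved in the same direction over the time course: all 10 rose at 7 dpi and at 14 dpi against intact, and 9 of the 10 fell at 14 dpi against 7 dpi. Over all genes tested, 15.7% were called higher at 7 dpi and 6.86% at 14 dpi against intact, and 4.20% lower at 14 dpi against 7 dpi. The sum of the 10 markers was 98.8 to 132 CPM in intact nerve, 892 to 1083 CPM at 7 dpi and 275 to 362 CPM at 14 dpi. The part of dividing cells in the Cd276 values was not tested. The perineurial markers ran the other way, and with their mean log2 level as a covariate the Cd276 fold change at 7 dpi was 5.59 on the log2 scale. Perineurial sums did not overlap between the groups, so that fit cannot separate the covariate from time. Without the 2 libraries of highest macrophage marker sum the Cd276 fold change was 6.35.

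The make-up of B7 ligand RNA differed between intact nerve and bridge. When the CPM per kilobase of the 7 genes were added up, Cd276 made up 5.76% ± 1.86 (SD, n = 5) of the sum in intact nerve, 94.0% ± 2.08 (n = 5) at 7 dpi and 74.4% ± 8.37 (n = 4) at 14 dpi. Cd274 made up 59.9% ± 9.06, 2.94% ± 1.49 and 13.7% ± 6.30 at the same times. Icosl gave 30.5% ± 4.19, 2.12% ± 0.94 and 9.23% ± 2.83. Intact libraries thus held mostly Cd274 and Icosl, and bridge libraries mostly Cd276, with 14 dpi between the other two. The sum itself was 11.8 ± 3.35, 58.4 ± 13.1 and 20.5 ± 2.11 CPM per kilobase. The log2 ratio of Cd276 to Cd274 per kilobase was -3.42 ± 0.56 in intact nerve, 5.17 ± 0.84 at 7 dpi and 2.56 ± 0.90 at 14 dpi. Because Cd276 was chosen for its rise, these shares are a description.

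**Figure D2:**
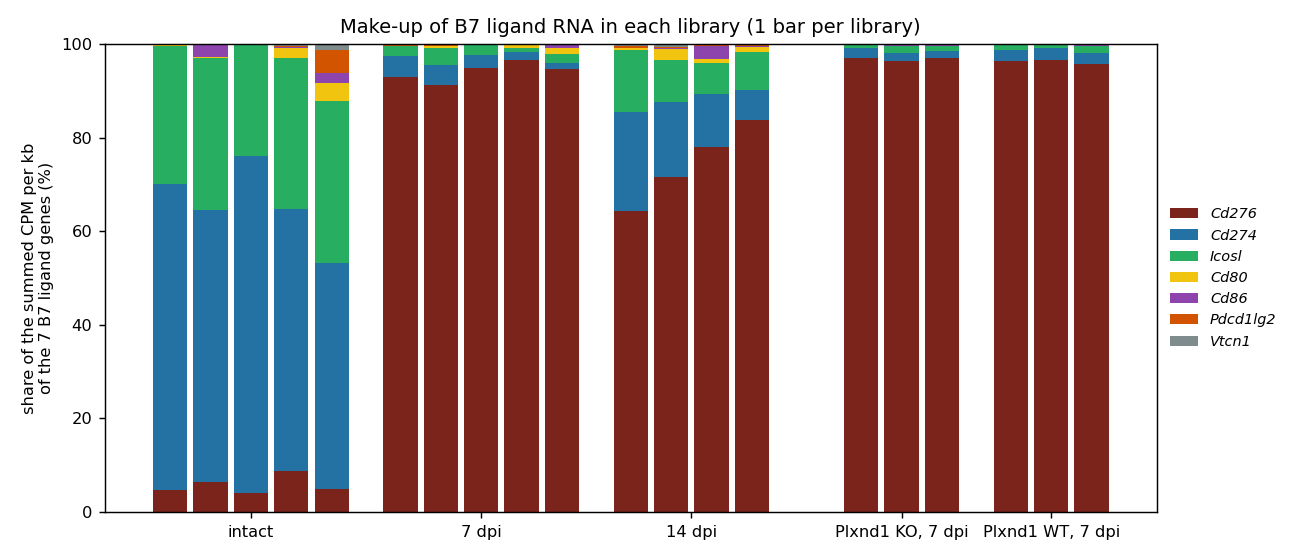
Share of the summed CPM per kilobase of the 7 B7 ligand genes taken by each gene, in percent, with 1 bar per library grouped by time and genotype. Cd276 takes 4.14 to 8.70% of the sum in intact libraries, 91.1 to 96.5% at 7 dpi and 64.3 to 83.7% at 14 dpi.

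Cd274, the main ligand of PD-1, was lower in the bridge than in intact nerve. It lies on chromosome 19 (chr19:29367455-29388095, plus strand). It had 34.4, 32.1, 32.6, 16.05 and 15.1 CPM in the intact libraries, 8.64, 6.59, 7.87, 4.04 and 2.53 CPM at 7 dpi, and 13.4, 12.1, 8.64 and 5.24 CPM at 14 dpi. Every bridge library was below every intact library, and 14 dpi overlapped 7 dpi. The log2 fold change was -2.16 ± 0.17 (SE, not tested) at 7 dpi against intact. Against intact, Cd274 fell at 14 dpi by 1.27 on the log2 scale (SE 0.18; edgeR adjusted p = 1.77e-04). Against 7 dpi it rose at 14 dpi, by 0.89 ± 0.18 (edgeR adjusted p = 0.00490).

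The level of Cd274 depended on batch. Intact nerve averaged 33.0 CPM in batch 1292 and 15.6 CPM in batch 1133. The endothelial marker sum was also lower in the intact libraries of batch 1133 (5665 and 4288 CPM) than in those of batch 1292 (8145, 10179 and 6983 CPM). Whether the 2 splits are linked was not tested. The fold change of Cd274 at 14 dpi against intact was -1.39 within batch 1292 (adjusted p = 0.00201) and -1.10 within batch 1133 (adjusted p = 0.183, with 2 libraries a group). The rise between 7 and 14 dpi kept its direction in each batch but lost the call there, at 0.70 (adjusted p = 0.0697) and 1.13 (adjusted p = 0.276). The call was also lost without a batch term (0.74, adjusted p = 0.318). It was lost too with the mean log2 level of the perineurial markers as a covariate (0.84, adjusted p = 0.277). The sums of these markers did not overlap between the groups, so that fit cannot separate the covariate from time. Perineurial and Schwann cell markers moved over the same times: the perineurial sum was 4752 to 7483 CPM in intact nerve, 539 to 1234 CPM at 7 dpi and 1662 to 3675 CPM at 14 dpi, and the Schwann cell sum was 286 to 589, 74.7 to 144 and 430 to 1756 CPM. The part of these cells in the Cd274 and Icosl values was not tested. Without the 2 libraries of highest macrophage marker sum, the fold changes were -1.46 at 14 dpi against intact (adjusted p = 1.09e-04) and 0.79 at 14 dpi against 7 dpi (adjusted p = 0.0202). Cd274 shares exonic bases with AC119228.1 on the other strand, which had 2 to 103 counts, and the counting is not stated to use strand.

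Pdcd1lg2, the second ligand of PD-1, neighbours Cd274 on chromosome 19 (chr19:29410919-29471161, plus strand). It was near the detection limit, with 0, 1, 0, 1 and 25 counts in the intact libraries, 7, 6, 3, 2 and 4 counts at 7 dpi, and 2, 3, 7 and 5 counts at 14 dpi. Only intact replicate 5 stood out, at 0.823 CPM. The gene was below the low-count filter in both experiments and was not tested.

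Icosl, the ligand of Icos, was likewise lower in the bridge than in intact nerve. It lies on chromosome 10 (chr10:78069302-78079525, plus strand). It had 12.04, 13.9, 8.38, 7.21 and 8.42 CPM in the intact libraries, 3.22, 4.18, 4.21, 1.78 and 3.02 CPM at 7 dpi, and 6.49, 5.29, 3.91 and 5.13 CPM at 14 dpi. Every bridge library was below every intact library, and 14 dpi replicate 3 alone lay within the range of 7 dpi. The log2 fold change was -1.61 ± 0.21 (SE, not tested) at 7 dpi against intact. Against intact, Icosl fell at 14 dpi by 0.87 (SE 0.22; edgeR adjusted p = 0.0164). That call was lost without 14 dpi replicate 2 (-0.79, adjusted p = 0.0716) and without a batch term (-0.94, adjusted p = 0.0509), and within either batch, at -0.97 in batch 1292 (adjusted p = 0.0809) and -0.71 in batch 1133 (adjusted p = 0.419). The difference between 14 and 7 dpi was 0.74 ± 0.22 (edgeR adjusted p = 0.0467), and leaving out any 1 of the 9 libraries lost the call (adjusted p = 0.0528 to 0.121). With the perineurial covariate, which cannot be separated from time, the value was 1.13 and was not called (adjusted p = 0.217). Without the 2 libraries of highest macrophage marker sum the values were -0.83 at 14 dpi against intact (adjusted p = 0.0369) and 0.66 at 14 dpi against 7 dpi (adjusted p = 0.165).

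Across the 7 members, Cd276 was higher and Cd274 and Icosl were lower without overlap at 7 dpi against intact, where of the 20409 genes tested 10.9% were higher and 10.6% lower in that way. The same 3 did not overlap at 14 dpi against intact, beside 5.14% of genes higher and 4.73% lower. Between 14 and 7 dpi Cd276 alone did not overlap, lower at 14 dpi as were 5.79% of genes, while 5.04% were higher. Cd274 and Icosl were called lower at 14 dpi against intact, beside 5.09% of tested genes called lower and 6.86% called higher. They were called higher at 14 dpi against 7 dpi, beside 5.73% of tested genes called higher and 4.20% called lower. Cd80 and Cd86 were tested and not called in either comparison. Pdcd1lg2 and Vtcn1 did not pass the low-count filter, and 5 of the 7 members passed it in the Tomato experiment and 3 in the Cherry experiment. The comparisons of 7 and 14 dpi share the intact libraries.

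The costimulatory pair Cd80 and Cd86, which lie on chromosome 16 (Cd80 chr16:38455561-38496335, plus strand; Cd86 chr16:36603869-36666077, minus strand), gave few counts. Cd80 had 5, 4, 0, 18 and 37 counts in the intact libraries, 7, 16, 6, 38 and 82 counts at 7 dpi, and 7, 47, 24 and 23 counts at 14 dpi. The groups overlapped throughout, and the intact and 7 dpi values of batch 1133 were the higher ones in their groups. The log2 fold change was 1.37 ± 0.77 (SE, not tested) at 7 dpi against intact and 1.64 ± 0.84 at 14 dpi against intact (edgeR adjusted p = 0.258, interval of ± 2 SE from -0.03 to 3.32). Between 14 and 7 dpi it was 0.27 ± 0.79 (adjusted p = 0.903), and -0.98 without 14 dpi replicate 2 (adjusted p = 0.638). Without the 2 libraries of highest macrophage marker sum the Cd80 value was 2.12 at 14 dpi against intact (adjusted p = 0.220). Against 7 dpi it was then 0.62 (adjusted p = 0.830).

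Cd86 had 0, 19, 0, 2 and 15 counts in the intact libraries, 0, 0, 5, 5 and 36 counts at 7 dpi, and 0, 5, 46 and 4 counts at 14 dpi. Each group held libraries at 0 and 1 or 2 libraries that carried most of its counts. The log2 fold change was -0.86 ± 1.45 (SE, not tested) at 7 dpi against intact. At 14 dpi it was -0.45 ± 1.52 against intact (edgeR adjusted p = 0.923, interval from -3.48 to 2.59) and 0.41 ± 1.42 against 7 dpi (adjusted p = 0.920). Without 14 dpi replicate 3 the value against 7 dpi was -0.81 (adjusted p = 0.877), and without 14 dpi replicate 1 that against intact was 0.018 (adjusted p = 0.999). Without the 2 libraries of highest macrophage marker sum the values were -1.43 against intact (adjusted p = 0.746) and -0.94 against 7 dpi (adjusted p = 0.883). Changes of several-fold in either direction lie within these intervals and were not detectable at this depth.

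Vtcn1, on chromosome 3 (chr3:100825459-100896922, plus strand), had 0, 0, 2, 2 and 9 counts in the intact libraries, 0, 0, 1, 0 and 3 counts at 7 dpi, and 4, 8, 0 and 0 counts at 14 dpi. It was not tested.

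Leukocyte genes were read beside these members. Ptprc, which encodes CD45, had 1, 12, 0, 18 and 97 counts in the intact libraries, 11, 1, 20, 39 and 25 counts at 7 dpi, and 40, 55, 279 and 6 counts at 14 dpi. Itgax, a dendritic cell integrin, reached 61 counts in intact replicate 5 and 349 counts in 14 dpi replicate 3. The highest Cd86 library at 14 dpi was that same replicate 3. Among the intact libraries replicate 5 was the highest in Pdcd1lg2, Vtcn1, Cd80 and Ptprc, while Cd86 was highest in replicate 2. At 7 dpi Cd80 and Cd86 were highest in replicate 5 and Ptprc in replicate 4, and at 14 dpi Cd80 was highest in replicate 2. Of the 14 macrophage and dendritic cell markers, 1 rose at 7 dpi against intact, where 15.7% of all tested genes were called higher, and 3 rose at 14 dpi against intact, where 6.86% were. The count at 7 dpi was 2 without intact replicate 5 and 3 without intact replicate 2 or 7 dpi replicate 5. The count at 14 dpi was 0 without intact replicate 4 or 14 dpi replicate 2 or 3, and 1 without intact replicate 1 or 3 or without the 2 libraries of highest macrophage marker sum. The marker sum was 35.6 to 50.1 CPM in intact nerve, 57.9 to 338 CPM at 7 dpi and 42.1 to 1080 CPM at 14 dpi, and none of them was at 0 throughout a Tomato group. Of the 8 lymphocyte and granulocyte markers, 2 passed the filter, the sum was at most 7.50 CPM, and Nkg7 was at 0 in every intact library. The part of residual leukocytes in the Cd80, Cd86, Pdcd1lg2 and Vtcn1 counts was not tested.

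**Figure D3:**
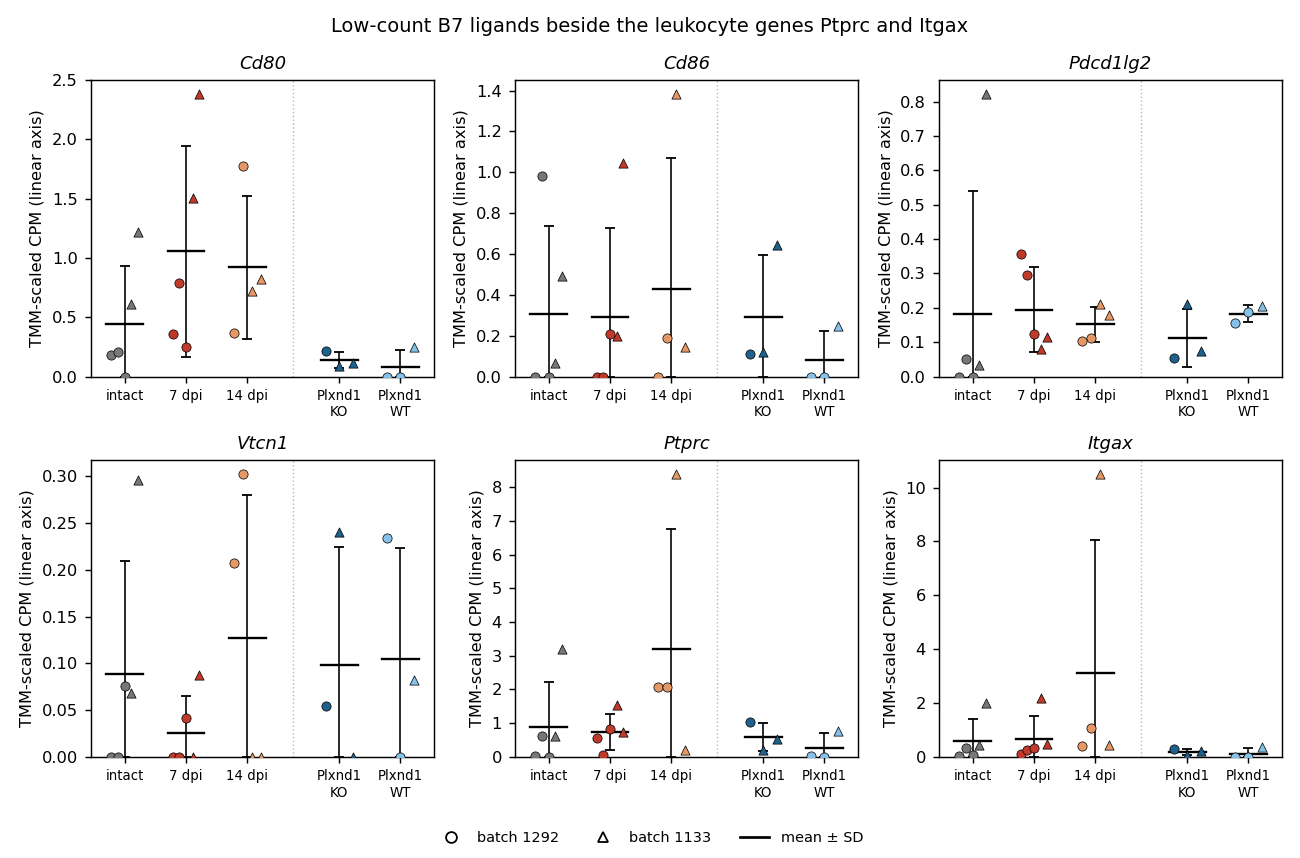
TMM-scaled CPM on linear axes for Cd80, Cd86, Pdcd1lg2 and Vtcn1 beside the leukocyte genes Ptprc and Itgax, 1 symbol per library (circles batch 1292, triangles batch 1133) with the mean ± SD, drawn down to 0. Single libraries carry most of the signal, such as 14 dpi replicate 3 for Cd86 (1.38 CPM) and Itgax (10.5 CPM).

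In both KO and WT bridge cells Cd276 stood above Cd274 per kilobase, and Cd274 above Icosl. Cd276 had 277, 263 and 311 CPM in KO libraries, against 257, 236 and 202 CPM in WT libraries. The groups did not overlap, with KO higher, as was so for 5.47% of the 16227 genes tested, while 6.30% were lower without overlap. The log2 fold change was 0.34 ± 0.12 (SE, interval of ± 2 SE from 0.11 to 0.57), which did not pass the test over all genes (edgeR adjusted p = 0.293). The value was 0.17 without WT replicate 3 (adjusted p = 0.769) and 0.51 without KO replicate 1 (adjusted p = 0.622). The 10 cell division markers summed to 1091 to 1155 CPM in KO cells and 851 to 1070 CPM in WT cells. None of them was called by edgeR or DESeq2, while 5 were higher at an unadjusted p under 0.05. Of the 16227 genes tested, 1868 had an unadjusted edgeR p under 0.05 in either direction. The part of dividing cells in the Cd276 value was not tested.

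Cd274 had 5.97, 4.57 and 4.89 CPM in KO libraries, against 6.03, 6.23 and 5.03 CPM in WT libraries. The log2 fold change was -0.06 ± 0.26 (edgeR adjusted p = 0.951, interval from -0.58 to 0.45). Icosl had 1.64, 3.55 and 2.84 CPM in KO libraries, against 2.26, 1.31 and 2.33 CPM in WT libraries, a log2 fold change of 0.18 ± 0.42 (adjusted p = 0.907, interval from -0.65 to 1.02) that was -0.12 without WT replicate 3 (adjusted p = 0.963). Both sets of values overlapped, and changes within those intervals were not detectable.

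In KO and WT libraries the other 4 members were below the filter. Cd80 had 4, 3 and 3 counts in KO libraries, against 0, 0 and 6 counts in WT libraries. Cd86 had 2, 4 and 17 counts in KO libraries, against 0, 0 and 6 counts in WT libraries. Pdcd1lg2 had 1, 7 and 2 counts in KO libraries, against 4, 5 and 5 counts in WT libraries. Vtcn1 had 1, 8 and 0 counts in KO libraries, against 6, 0 and 2 counts in WT libraries. None of the 3 tested members was called by edgeR or by DESeq2, 1 of them (Cd276) had an unadjusted p under 0.05, and of all tested genes 0.129% were called higher and 0.179% lower. Cd276 made up 96.8% ± 0.39 of the summed B7 ligand CPM per kilobase in KO cells and 96.3% ± 0.49 in WT cells (SD, n = 3 each).

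By level, Cd276 ran from KO (284 ± 24.8 CPM) and WT cells (232 ± 27.5) of the Cherry experiment through 7 dpi (199 ± 47.7), 14 dpi (55.3 ± 11.4) and intact cells (2.37 ± 0.78) of the Tomato experiment. The range of the WT libraries lay within that of the 7 dpi Tomato libraries. The 2 experiments were scaled separately, and no test was made between them.

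The genes listed beside the family were described in the same contrasts, and their lists were drawn up with results of these data known. The adjusted p-values printed for these genes are therefore a description and not independent evidence. Of 6 receptor genes, 4 passed the filter (Cd28, Icos, Pdcd1 and Rgmb) and none was called by edgeR or DESeq2 in any comparison, with 1 lower in KO cells at an unadjusted p under 0.05. Rgmb, a coreceptor that binds Pdcd1lg2, averaged 82.1 ± 32.9 CPM at 7 dpi against 87.3 ± 24.8 CPM in intact nerve (SD, n = 5 each). The T-cell receptors Cd28, Icos and Pdcd1 averaged 0.705, 0.409 and 0.112 CPM at 7 dpi and 1.45, 0.823 and 0.554 CPM in intact nerve. The median log2 fold change of the 4 genes was -0.84 at 7 dpi against intact, beside -0.10 over all genes, and it was -0.14 at 14 dpi against intact, beside 0.00.

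Of 11 butyrophilins and V-set relatives, 7 were tested and 2 fell at 7 dpi against intact, with a median log2 fold change of -0.61 for the 7. Over all genes tested in that comparison, 15.7% were called higher and 16.3% called lower. At 14 dpi against 7 dpi those shares were 5.73% and 4.20%. Vsir, an inhibitory B7 relative, averaged 83.9 ± 8.07 CPM at 7 dpi and 129 ± 20.7 CPM in intact nerve (log2 fold change -0.61 ± 0.14, edgeR adjusted p = 0.00273). Btnl9 averaged 8.22 ± 2.27 CPM at 7 dpi and 13.7 ± 5.93 CPM in intact nerve (-0.74 ± 0.23, adjusted p = 0.0189), a call lost without 7 dpi replicate 2 or intact replicate 2 or 5 (adjusted p = 0.0511 to 0.0647). Both rose at 14 dpi against 7 dpi, Btnl9 by 0.96 ± 0.24 (adjusted p = 0.0171) and Vsir by 0.50 ± 0.15 (adjusted p = 0.0451). Those calls were lost for Vsir when any 1 of 8 of the 9 libraries was left out (adjusted p = 0.0527 to 0.177; the exception was 14 dpi replicate 1), and for Btnl9 without 14 dpi replicate 2 or 7 dpi replicate 5 (0.0632 and 0.0691). By edgeR or DESeq2 none was called at 14 dpi against intact, with 0 at an unadjusted p under 0.05, or in KO cells, with 1 of 2.

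Other ligands of T and NK cells moved in both directions. Of 19 genes, 15 were tested and 5 rose and 1 fell at 7 dpi against intact (median log2 fold change 0.12). Over all genes tested there, 15.7% were called higher and 16.3% lower (median -0.10). Raet1e, a ligand of the NK receptor NKG2D, averaged 24.0 ± 4.55 CPM at 7 dpi and 2.41 ± 0.73 CPM in intact nerve (3.33 ± 0.22, edgeR adjusted p = 1.38e-08). Cd40, the receptor of CD40 ligand, averaged 19.7 ± 6.94 CPM at 7 dpi and 4.86 ± 1.47 CPM in intact nerve (1.98 ± 0.23, adjusted p = 6.02e-06). Lgals9, which encodes galectin-9, averaged 696 ± 70.04 CPM at 7 dpi and 312 ± 90.2 CPM in intact nerve (1.16 ± 0.19, adjusted p = 1.36e-04). H2-T23, the nonclassical MHC molecule Qa-1, fell to 151.01 ± 34.4 CPM at 7 dpi, against 373 ± 119.6 CPM in intact nerve (-1.30 ± 0.18, adjusted p = 3.87e-05). The other genes that rose, Nectin2 (0.93 ± 0.14) and Pvr (0.44 ± 0.12), were named after their values were seen. Raet1e and H2-T23 have close paralogs that may share reads.

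Of these 15 genes, 3 rose at 14 dpi against intact (median 0.14). They were Raet1e (2.21 ± 0.22, edgeR adjusted p = 7.20e-06), Cd200 (0.54 ± 0.13, adjusted p = 0.0109) and Tnfsf9 (0.77 ± 0.23, adjusted p = 0.0413). Over all genes tested, 6.86% were called higher and 5.09% lower in that comparison. The shares called higher and lower were 5.73% and 4.20% at 14 dpi against 7 dpi, and 0.129% and 0.179% in KO against WT cells. The Tnfsf9 call was lost in 7 of 9 leave-one-out fits, without intact replicates 1, 3, 4 or 5 or 14 dpi replicates 2, 3 or 4 (adjusted p = 0.0591 to 0.136). Relative to 7 dpi, 4 fell at 14 dpi, Cd40 (-1.32 ± 0.25, adjusted p = 0.00280), Raet1e (-1.12 ± 0.22, adjusted p = 0.00328), Nectin2 (-0.79 ± 0.15, adjusted p = 0.00340) and, named after its value was seen, Lgals9 (-0.79 ± 0.20, adjusted p = 0.0184), and H2-T23 rose (0.78 ± 0.19, adjusted p = 0.0172). In KO cells Raet1e was the 1 gene called of 14 tested, at 36.9 ± 2.25 CPM against 18.5 ± 1.64 CPM in WT cells (1.06 ± 0.14, SD with n = 3 each; adjusted p = 0.00668), and the call was lost without KO replicate 1, KO replicate 3 or WT replicate 3 (adjusted p = 0.0787 to 0.160).

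Interferon gamma is a well-known inducer of Cd274. All 14 genes listed for that route were tested, and 3 rose and 4 fell at 7 dpi against intact, beside 15.7% of all tested genes called higher and 16.3% called lower, with a median log2 fold change of -0.17 for the list. The kinases Jak2 (1.08 ± 0.14, edgeR adjusted p = 2.33e-05) and Jak1 (1.00 ± 0.12, adjusted p = 7.15e-06) and the receptor chain Ifngr2 (0.47 ± 0.15, adjusted p = 0.0266) rose. The feedback inhibitor Socs1 (-0.89 ± 0.18, adjusted p = 0.00115), the class II transactivator Ciita (-1.56 ± 0.47, adjusted p = 0.0161) and Cmtm4 (-0.72 ± 0.18, adjusted p = 0.00442), a stabiliser of the Cd274 protein, fell. So did its relative Cmtm6, named after its value was seen (-0.45 ± 0.14, adjusted p = 0.0177). The Ifngr2 call was lost without intact replicate 1, 7 dpi replicate 3 or 7 dpi replicate 4 (adjusted p = 0.0533 to 0.0811), and that of Ciita without intact replicate 1 or 5 (0.0578 and 0.0639). Irf1 (-0.30 ± 0.19), which is known to act on the Cd274 promoter, was not called at 7 dpi.

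Of the same 14 genes, 2 rose at 14 dpi against intact, Jak2 (0.73 ± 0.15, edgeR adjusted p = 0.00398) and Jak1 (0.52 ± 0.13, adjusted p = 0.0114), with a median of 0.05 and 4 genes called without intact replicate 2 or 4. Relative to 7 dpi, Socs1 (1.20 ± 0.19, adjusted p = 7.91e-04) and Irf1 (0.81 ± 0.21, adjusted p = 0.0191) rose at 14 dpi and Jak1 fell (-0.48 ± 0.13, adjusted p = 0.0237). The Irf1 call was lost without 14 dpi replicate 3 or 4 (0.0541 and 0.0622) and the Jak1 call without 7 dpi replicate 3 or 4 or 14 dpi replicate 1 or 2 (0.0536 to 0.0798). Over all genes tested, 6.86% were called higher and 5.09% lower at 14 dpi against intact. At 14 dpi against 7 dpi those shares were 5.73% and 4.20%. None of the 14 was called in KO cells by edgeR or DESeq2, and 3 had an unadjusted p under 0.05.

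**Figure D4:**
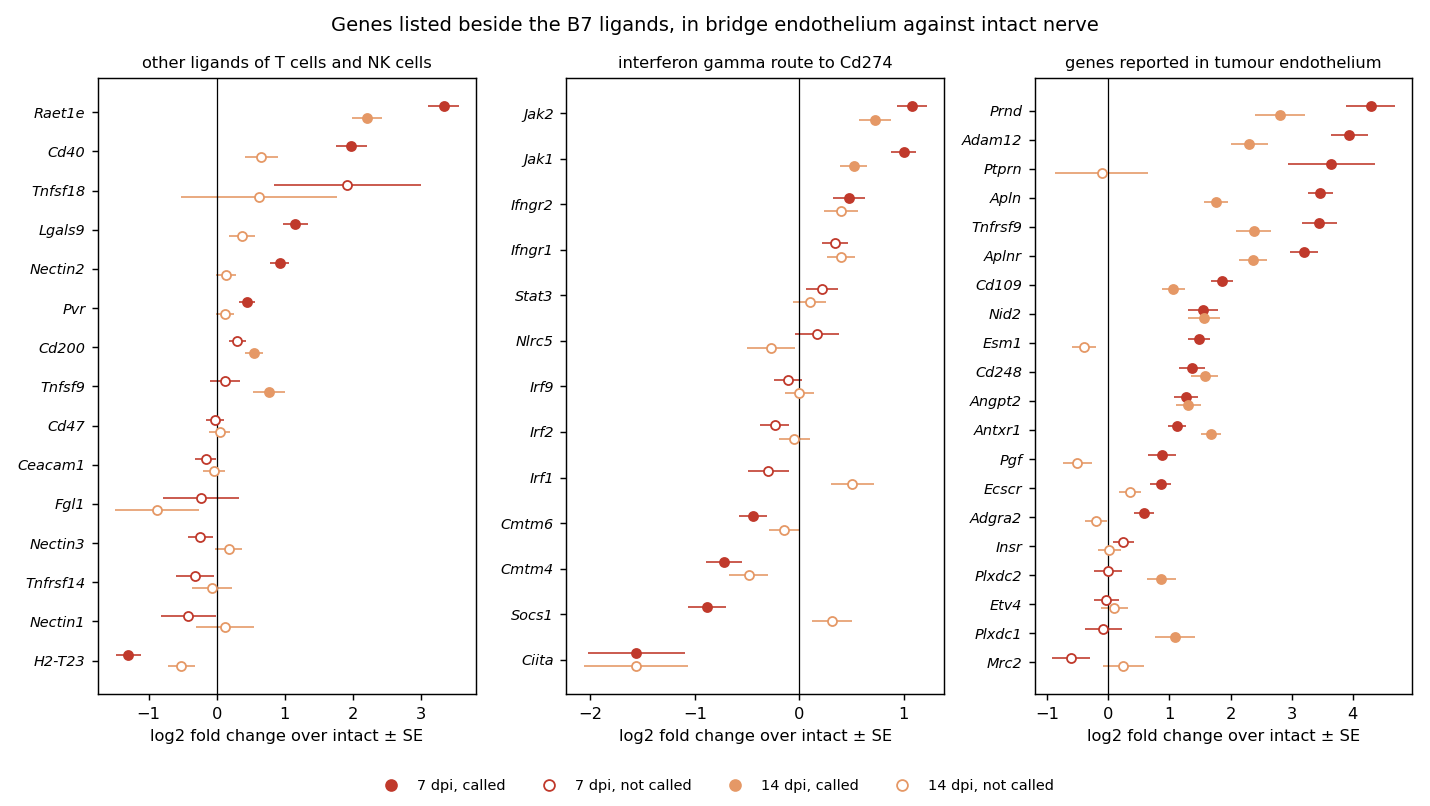
Log2 fold change over intact nerve ± SE for tested genes of 3 lists, at 7 dpi (red) and 14 dpi (orange), with filled symbols for adjusted p under 0.05. Raet1e (3.33) and Prnd (4.29) are the furthest right at 7 dpi in their panels, and the interferon gamma list lies on both sides of 0. At 7 dpi 15 of 20 tumour endothelium genes were called higher, beside 15.7% of all genes tested.

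Genes reported in tumour endothelium, a list to which Cd276 itself belongs in the literature, were mostly higher in the bridge. Of 20 genes without Cd276, 15 rose and none fell at 7 dpi against intact (median log2 fold change 1.32). At 14 dpi against intact 12 rose and none fell (median 1.08). Over all genes tested, 15.7% were called higher and 16.3% lower at 7 dpi (median -0.10). At 14 dpi those shares were 6.86% and 5.09% (median 0.005). The choice of this list was made with results of these samples known, so it is not independent evidence of its direction. Of the 10 fibroblast markers, 6 rose and 2 fell at 7 dpi against intact, and 7 rose and none fell at 14 dpi. The part of fibroblasts or other cells in the values of this list was not tested. At 7 dpi Prnd averaged 3.78 ± 1.37 CPM against 0.185 ± 0.08 CPM in intact nerve (4.29 ± 0.41, edgeR adjusted p = 5.85e-07). The metalloprotease Adam12 averaged 29.2 ± 7.98 CPM at 7 dpi and 1.89 ± 1.13 CPM in intact nerve (3.94 ± 0.30, adjusted p = 6.18e-08), and Ptprn averaged 3.98 ± 0.66 CPM at 7 dpi and 0.331 ± 0.40 CPM in intact nerve (3.65 ± 0.71, adjusted p = 7.57e-04). At 14 dpi the largest were Prnd (2.81 ± 0.40, adjusted p = 1.72e-04), Tnfrsf9 (2.38 ± 0.29, adjusted p = 3.84e-05) and the apelin receptor Aplnr (2.37 ± 0.23, adjusted p = 4.80e-06).

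Of the 20 genes, 10 fell and 3 rose at 14 dpi against 7 dpi (median -0.64). Over all genes tested, 4.20% were called lower and 5.73% higher in that comparison (median 0.06). Of the 10 fibroblast markers 3 were called higher there and none lower. That count was 0 without the 2 libraries of highest macrophage marker sum. Ptprn (-3.75 ± 0.78, edgeR adjusted p = 0.00532), Esm1 (-1.88 ± 0.20, adjusted p = 3.14e-05) and Apln (-1.71 ± 0.21, adjusted p = 8.97e-05) fell, the last pair being genes of sprouting tip cells. Plxdc1 (1.18 ± 0.32, adjusted p = 0.0261), Plxdc2 (0.88 ± 0.24, adjusted p = 0.0272) and Antxr1 (0.56 ± 0.16, adjusted p = 0.0334) rose. The calls of these 3 were lost when 1 library was left out, Plxdc1 in 3 of 9 fits (14 dpi replicates 2, 3 and 4, adjusted p = 0.0603 to 0.0803), Plxdc2 in 5 (those and 7 dpi replicates 3 and 5, 0.0554 to 0.104) and Antxr1 in 7 (each but 7 dpi replicate 5 and 14 dpi replicate 1, 0.0549 to 0.115). The 13 calls were 8 without 7 dpi replicate 3 or 14 dpi replicate 2 and 7 without 14 dpi replicate 3, and 6, all lower, without the 2 libraries of highest macrophage marker sum. In KO cells Apln was the 1 gene called, at 619 ± 58.8 CPM against 357 ± 92.4 CPM in WT cells (0.92 ± 0.16, SD with n = 3 each, adjusted p = 0.0425). That call was lost without any 1 library but WT replicate 1 (adjusted p = 0.0693 to 0.287). Over all genes tested in KO against WT, 0.129% were called higher and 0.179% lower.

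The genes whose time course lay closest to that of Cd276 were found by the root mean square difference of centred log2 CPM over the 14 Tomato libraries, among 10060 genes with an average log2 CPM over 3. The 6 closest were Mest (0.58), an imprinted gene, Cdk1 (0.74), the mitotic kinase, Nox4 (0.75), an NADPH oxidase, AA467197 (0.77), Chga (0.78), which encodes chromogranin A, and Pclaf (0.79), a PCNA-binding factor. The seventh stood at 0.81 and the median gene at 2.76. Their levels differ while their pattern is alike: Mest averaged 21.1 ± 4.44, 1194 ± 270.8 and 191.4 ± 55.2 CPM in intact nerve, at 7 dpi and at 14 dpi, and Chga averaged 1.49 ± 1.09, 255 ± 81.8 and 55.5 ± 12.3 CPM. These libraries chose the 6 genes, so their time course is a description, and the 14 points share depth, batch and cell make-up.

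**Figure D5:**
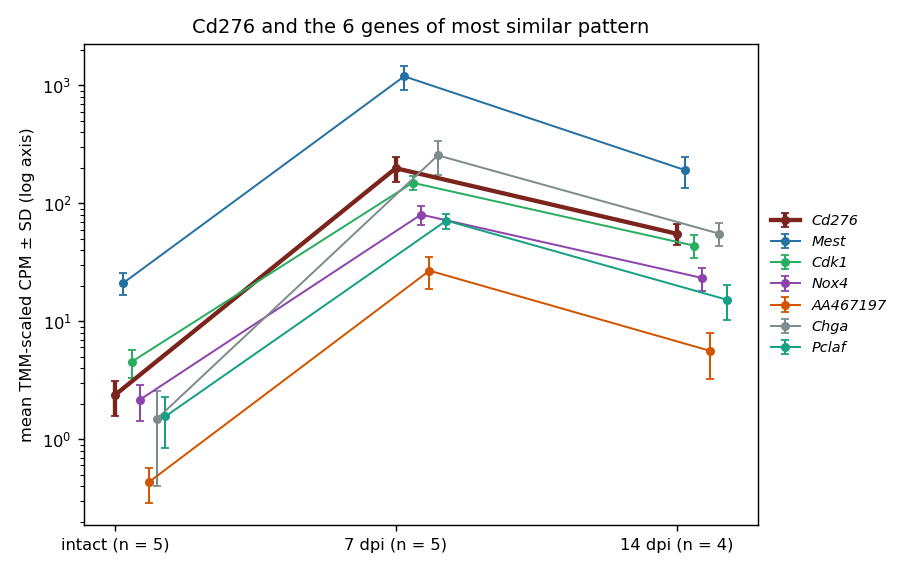
Mean TMM-scaled CPM ± SD on a log axis in intact nerve, at 7 dpi and at 14 dpi for Cd276 and the 6 genes of smallest root mean square difference from it, with points set side by side for legibility. Each line peaks at 7 dpi and lies between the other 2 groups at 14 dpi.

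In the Cherry libraries, which played no part in that choice, Chga was called higher in KO cells, at 385 ± 70.8 CPM against 193 ± 23.9 CPM in WT cells (log2 fold change 0.92, SD with n = 3 each, edgeR adjusted p = 0.0233). That call was lost without WT replicate 1 or 3 or KO replicate 2 or 3 (adjusted p = 0.0596 to 0.275). The other 5 were not called, and of all tested genes 0.129% were called higher and 0.179% lower. Mest averaged 1889 ± 109.9 CPM in KO cells and 1543 ± 347.3 CPM in WT cells (0.44, adjusted p = 0.201). The values were 0.64 for AA467197 (adjusted p = 0.101), 0.33 for Cdk1 (adjusted p = 0.249), 0.24 for Pclaf (adjusted p = 0.518) and 0.05 for Nox4 (adjusted p = 0.927), beside 0.34 for Cd276.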

How the data were processed

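Bulk polyA RNA-seq of 20 libraries was deposited by the authors as raw counts per gene. Per the submitters' processing notes, Trimmomatic 0.39, STAR 2.5.3a, featureCounts 1.6.4 and build mm10 (GRCm38) were used, and Cell Ranger 3.0.2 is also named. The annotation release and strand setting are not stated in them, so overlapping genes and paralogs may share reads. The ComBat-Seq counts of the Cherry libraries served as an alternative.

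The members and lists were chosen with earlier results of these data known. The members came from the symbol column, and up to 3 called genes per list and direction were named. The values of 1 gene of the interferon gamma list are not reported here. In R 4.3.3, edgeR 4.0.16 was run on the counts (TMM scaling, filterByExpr, robust quasi-likelihood test, batch as a term), the 14 Tomato libraries in 1 fit and the 6 Cherry libraries in another. Genes were called at a Benjamini-Hochberg adjusted p under 0.05 over all genes tested, 20409 and 16227. CPM are TMM-scaled within each experiment, log2 fold changes are the fitted ones, and SE was taken from the F statistic. The 32 replicate pairs differed beyond sampling noise (chi-square per degree of freedom 15.4 to 121). The code was tested on simulated data. Alternatives covered scaling (RLE, library size), the filter, DESeq2 1.42.0, the batch term, single batches, a perineurial covariate and libraries left out.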

Additional observations from a re-analysis of the deposited data

Results flagged for a closer look

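4 of 21 groups checked held 1 library far from the others, all of them in low-count members, and the limit used is one that chance passes in about 1 in 20 groups of normally distributed values. For counts near 0 that rate was not tested. Pdcd1lg2 was at 0.823 CPM (25 counts) in intact replicate 5, with the nearest intact library at 0.0516 CPM. Vtcn1 was at 0.296 CPM (9 counts) in that same library, with the nearest at 0.0762 CPM. Cd86 was at 1.05 CPM (36 counts) in 7 dpi replicate 5, with the nearest at 0.208 CPM, and at 1.38 CPM (46 counts) in 14 dpi replicate 3, with the nearest at 0.189 CPM. In intact replicate 5 Ptprc had 97 counts, the most of its group, and in 14 dpi replicate 3 it had 279. The cause was not tested.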

How the results depend on the processing

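Cd276 kept its direction in every alternative run for all 4 comparisons. With single libraries left out its log2 fold change ran from 6.25 to 6.58 at 7 dpi against intact, 4.38 to 4.71 at 14 dpi against intact, -1.97 to -1.73 at 14 dpi against 7 dpi and 0.17 to 0.51 for KO against WT, where the adjusted p ran from 0.0978 to 0.926 over 14 alternatives. With a perineurial covariate it was 5.59 at 7 dpi against intact and -1.39 at 14 dpi against 7 dpi, and in batch 1133 alone it was 5.04 at 14 dpi against intact. Cd274 kept its direction throughout, and lost its call at 14 dpi against intact in 1 of 19 alternatives and at 14 dpi against 7 dpi in 4 of 19, among them the perineurial covariate (0.84, adjusted p = 0.277). Icosl lost its calls in 5 and 17 of 19.

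Genes called at 7 dpi against intact numbered 6535, and 2042 in batch 1133 alone and 475 with the perineurial covariate (5808 to 6748 with single libraries left out). At 14 dpi against intact they numbered 2439, and 795 in batch 1133, 1500 in batch 1292 and 1031 with the covariate (1784 to 2617). At 14 dpi against 7 dpi they numbered 2027, and 3238 with DESeq2, 1226 without a batch term, 366 in batch 1133, 726 in batch 1292, 84 with the covariate and 908 without the 2 libraries of highest macrophage marker sum, an alternative chosen after seeing the data (1305 to 1901). For KO against WT they numbered 50, and 230 without a filter, 421 with DESeq2, 5 without a batch term, 31 in batch 1292 and 550 on ComBat-Seq counts (6 to 40). Fits of 1 batch or fewer libraries have fewer samples. Perineurial marker sums did not overlap between the groups, so the covariate fits cannot separate these markers from time. For the rest the cause was not tested.

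Directions turned for low-count members, Plxdc2, Nox4 and Pclaf. Cd86 was 1.22 at 7 dpi against intact in batch 1133, and 0.52 without a batch term, 1.57 in batch 1133 and 0.018 without 14 dpi replicate 1 at 14 dpi against intact (-1.43 to 0.018 with single libraries left out). At 14 dpi against 7 dpi it was -0.81 without 14 dpi replicate 3 (-0.81 to 0.79 likewise) and -0.94 without the 2 macrophage-high libraries. Cd80 was -0.14 at 14 dpi against intact in batch 1133, and at 14 dpi against 7 dpi -0.20 without a batch term, -1.28 in batch 1133 and -0.98 without 14 dpi replicate 2 (-0.98 to 0.67). Plxdc2 was -0.094 at 14 dpi against 7 dpi with the covariate. Icosl was -0.12 for KO against WT in batch 1292 and without WT replicate 3 (-0.12 to 0.46). Nox4 and Pclaf were -0.047 and -0.025 without a batch term and -0.15 and -0.0035 in batch 1292, and ran from -0.16 to 0.26 and from -0.0095 to 0.49 with single libraries left out, and Nox4 was -0.015 without TMM scaling. Of 48 calls of single genes named, 32 held whichever 1 library was left out. Low counts limit Pdcd1lg2 and Vtcn1 in both experiments, and Cd80 and Cd86 in the Cherry experiment. In the Tomato experiment few counts and a wide spread among libraries limit Cd80 and Cd86 (SE of the log2 fold change 0.77 to 1.52). No paired analysis was possible because the labels give no replicate numbers that pair libraries across groups.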
